A study of Mus musculus with 76 samples.

Results

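Hemoglobin genes were followed through the developing diencephalon, the brain region that forms the thalamus and hypothalamus, of hs754 humanized and wild type mice. The genes described are the 7 embryonic and adult-type globins Hbb-bh1, Hbb-y, Hba-x, Hbb-bs, Hbb-bt, Hba-a1 and Hba-a2, a list chosen by name as a measure of blood in the dissected tissue. They are 7 of 56923 annotated genes counted in 16 RNA-seq samples. Wild type samples were homozygous C57BL/6J-background mice with the unedited locus. Humanized samples were homozygous for a human hs754 sequence that replaced the mouse sequence on chromosome 13, in a line edited in C57BL/6J embryos and backcrossed to C57BL/6J. Tissue was taken at embryonic days E11.5 and E17.5, with 4 RNA samples for each genotype and stage, and each sample pooled embryos of the same litter, 6 at E11.5 and 3 at E17.5. No treatment was given. ChIP-seq peak lists of H3K27ac, H3K4me3 and H3K27me3 covered both stages and genotypes, with 2 replicates of each genotype in the E11.5 set and 3 in the E17.5 set, and CTCF was profiled in the later set only.

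Red blood cells carry oxygen on hemoglobin, a tetramer of 2 α-type and 2 β-type globin chains that each hold a heme group. Mouse embryos first use primitive red cells from the yolk sac, which carry, beside some adult α chain, the embryonic chains ζ (Hba-x), εy (Hbb-y) and βh1 (Hbb-bh1). Definitive red cells from the fetal liver then replace them and carry the adult-type chains α (Hba-a1 and Hba-a2) and β (Hbb-bs and Hbb-bt). The α-type and β-type genes form separate clusters on different chromosomes, each with distal enhancers upstream of the embryonic gene. For the β cluster these form the locus control region, and for the α cluster they lie partly within introns of the neighbouring gene Nprl3. Globin transcripts in dissected brain are commonly read as a measure of the blood that it holds.

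In the mm39 genome the β-type members lay on the minus strand of chromosome 7, at 103461727–103465047 (Hbb-bt), 103475730–103482989 (Hbb-bs), 103490844–103492371 (Hbb-bh1) and 103500956–103502423 (Hbb-y). The α-type members lay on the plus strand of chromosome 11, at 32226400–32228116 (Hba-x), 32233186–32234504 (Hba-a1) and 32246168–32247320 (Hba-a2). Each has 3 exons in its canonical transcript. None of them lies on chromosome 13, so the edit did not change their coordinates.

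The proximal promoters are shown first, since they carry the elements that the globin genes of both clusters share. The RefSeq promoter table for GRCm38.p6 held 6 of the 7 members, all but Hbb-bh1, and each of the 6 promoters was found unchanged in mm39. The 120 bases before the RefSeq start of each gene are given 5′ to 3′ on the gene's own strand. Peaks were placed by the 5′ end of each canonical GENCODE transcript. These 5′ ends differ from the RefSeq starts, so that a window can lie within the span of its gene. They bound the gene spans above for Hbb-bh1, Hbb-y and Hba-x. For the adult-type genes they lay inside the spans, at 103477169 (Hbb-bs), 103463203 (Hbb-bt), 32233511 (Hba-a1) and 32246396 (Hba-a2). Capitals mark the CACCC box, the CCAAT box, ATAAA and ATATAA in either orientation.
Hbb-y (chr7:103502415-103502534, minus strand): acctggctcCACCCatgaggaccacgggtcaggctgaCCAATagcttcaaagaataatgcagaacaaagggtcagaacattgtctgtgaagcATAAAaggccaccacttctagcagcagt
Hba-x (chr11:32226480-32226599, plus strand): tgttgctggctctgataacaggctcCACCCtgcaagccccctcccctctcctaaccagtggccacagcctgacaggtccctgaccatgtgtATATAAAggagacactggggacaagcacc
Hbb-bs (chr7:103477136-103477255, minus strand): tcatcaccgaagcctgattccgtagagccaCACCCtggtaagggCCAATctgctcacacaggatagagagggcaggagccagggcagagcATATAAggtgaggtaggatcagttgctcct
Hbb-bt (chr7:103463131-103463250, minus strand): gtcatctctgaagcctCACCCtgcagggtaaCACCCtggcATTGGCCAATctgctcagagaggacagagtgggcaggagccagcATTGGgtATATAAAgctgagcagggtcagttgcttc
Hba-a1 (chr11:32233552-32233671, plus strand): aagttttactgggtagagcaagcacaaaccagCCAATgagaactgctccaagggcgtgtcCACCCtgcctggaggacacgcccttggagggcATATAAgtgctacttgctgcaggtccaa
Hba-a2 (chr11:32246372-32246491, plus strand): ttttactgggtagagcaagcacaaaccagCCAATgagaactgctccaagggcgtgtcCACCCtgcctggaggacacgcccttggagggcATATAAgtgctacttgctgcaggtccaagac

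CACCC, the box bound by Krüppel-like factors such as the erythroid factor Klf1, was present in 6 of 6 of these windows, against 31.7% of 32851 mouse promoters cut to the same length. CCAAT, the box bound by NF-Y, was present in 5 of 6, all but Hba-x, against 21.3% of promoters. ATAAA was present in 3 of 6 (20.2% of promoters), and the TATA-like ATATAA in 5 of 6, all but Hbb-y (4.47% of promoters). ATATAA was added to the search after the sequences had been read, and its last letters overlap ATAAA where a further A follows. In Hbb-bs the CACCC box began 90 bases before the RefSeq start, CCAAT 76 and ATATAA 30. In Hba-a1 the order of the distal boxes was the other way round, with CCAAT 88 bases before the start and CACCC 60. AGATAA, a form of the site for the erythroid factor Gata1, had no match in these 6 windows and was present in 4.36% of promoters. Other forms of that site were not searched, and the Hba-x window above holds the letters TGATAA. A match of letters is a description of the window and not a measured binding site. The promoters of Hba-a1 and Hba-a2 were the same over 117 of 117 aligned bases, and those of Hbb-bs and Hbb-bt over 88 of 119 (73.9%).

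That likeness extends into the transcripts and bears on how finely the adult-type genes could be separated. Of all 150-base stretches of the transcript, the length of 1 sequencing read, 100% were found in no other member's transcript for Hbb-bh1, Hbb-y and Hba-x. The share was 45.0% for Hbb-bs, 49.4% for Hbb-bt, 37.2% for Hba-a1 and 27.9% for Hba-a2. Values of the single adult-type genes are therefore uncertain between near-identical copies. Read pairs that mapped to more than 1 place were not counted, so the adult-type levels, and every sum or share that includes them, can also be too low beside those of the 3 embryonic genes, and by how much was not tested.

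The samples held between 16414369 and 24272569 counts on genes, and levels are given below as CPM, counts scaled to one common total of counts on genes, in replicates 1 to 4. Diencephalon regulators were expressed in every group, with summed levels of the 9-gene list between 1354 and 2174 CPM and none of the 9 at 0. One library, wild type replicate 1 at E17.5, had the highest globin level of its stage, and values that it moves are also given without it. In bulk tissue, fewer red cells and less globin RNA per red cell cannot be told apart.

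The embryonic globins were abundant at E11.5 and nearly absent at E17.5. Hbb-y, the εy chain of primitive red cells, stood at 1394, 1747, 810.0 and 1109.5 CPM in the wild type samples and 1811, 2635, 1314 and 2043 CPM in the humanized samples at E11.5. Its counts at E17.5 were 3, 0, 3 and 0 in the wild type samples and 2, 0, 10 and 2 in the humanized samples. The 8 samples of E11.5 and the 8 of E17.5 were thus separated by several orders of magnitude, with no overlap.

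Hbb-bh1, the second embryonic β-type chain, reached 419, 858, 379.8 and 559 CPM in the wild type samples and 765, 1067, 879.6 and 1141 CPM in the humanized samples at E11.5. At E17.5 its counts were 1, 0, 0 and 0 in the wild type samples and 0, 0, 1 and 0 in the humanized samples, so that each genotype held a single read pair. A count of 0 in these libraries allows a level of up to 3 counts, which is 0.124 to 0.183 CPM.

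Hba-x, the embryonic ζ chain of the α cluster, was measured at 679, 984, 455 and 644 CPM in the wild type samples and 1011, 1505, 866 and 1277 CPM in the humanized samples at E11.5. Its counts at E17.5 were 11, 1, 3 and 0 in the wild type samples and 1, 3, 5 and 0 in the humanized samples, and the highest of these, 11, was in the library with the highest globin level. Within E11.5, wild type replicate 2 and humanized replicate 2 were the highest of their genotype for Hbb-y and Hba-x, and the 2 genotypes overlapped for all 3 embryonic genes.

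Pooled over 4 libraries, Hbb-y fell from 98841 to 6 counts in wild type, a CPM ratio of 17727 (95% counting interval 8144 to 48307), and from 165688 to 14 counts in humanized samples, a ratio of 10089 (6013 to 18454). For Hba-x the wild type ratio was 3883 (2354 to 6938) and the humanized ratio 9367 (4934 to 20486). For Hbb-bh1 the ratios rest on 1 count per genotype at E17.5 and were 46926 (8422 to 1853519) and 69539 (12481 to 2746689). These intervals cover counting error only. The ratios rest on few late counts, and single libraries hold many of them. Without wild type replicate 1 of E17.5, an alternative chosen after seeing the data, 4 late counts of Hba-x remained in wild type and its ratio was 10864 (4243 to 39873), above the humanized value. Without humanized replicate 3 the humanized ratio of Hba-x was 15819 (6178 to 58060) and that of Hbb-y, with 4 late counts left, 26503 (10351 to 97270). The wild type ratio of Hbb-y was 26452 (9051 to 128272) without replicate 1 and 27075 (9264 to 131293) without replicate 3. Hbb-bh1 had 0 late counts left without wild type replicate 1 or humanized replicate 3, and 3 counts over the remaining libraries would put the ratio at 11670.3 and 17398, so it was at least that many times higher at E11.5. The order of the genotypes in these ratios is thus not settled. In the fit across all genes, the stage differences of Hbb-y were −13.89 ± 0.60 (log2 fold change ± SE, E17.5 against E11.5; edgeR quasi-likelihood adjusted p = 2.87e-07) in wild type and −13.15 ± 0.47 in humanized samples (edgeR adjusted p = 6.59e-10). For Hba-x they were −11.75 ± 0.69 and −13.01 ± 0.39, and for Hbb-bh1 −14.82 ± 0.58 and −15.45 ± 0.35, with fitted sizes that depend on the prior count since their late counts were at or near 0. Without replicate 1 of E17.5 the wild type differences were −14.46 for Hbb-y, −13.21 for Hba-x and −16.43 for Hbb-bh1.

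**Figure D1:**
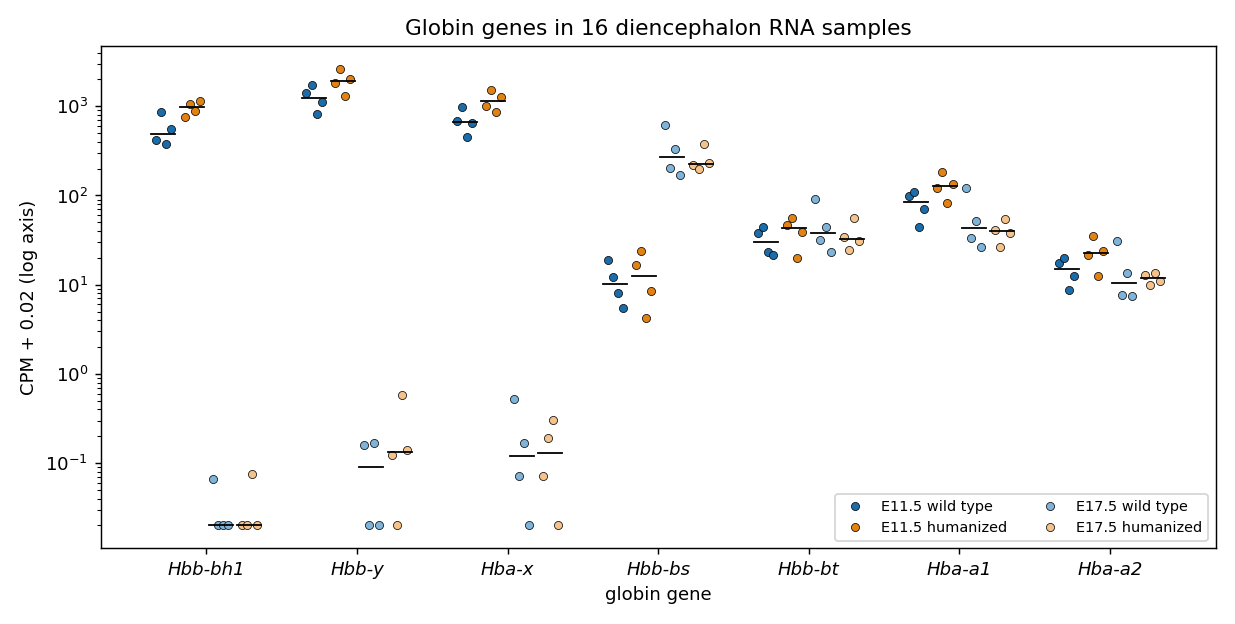
Level (CPM) of each of the 7 globins in every RNA sample, on a log axis with 0.02 CPM added so that 0 can be drawn, with wild type and humanized samples of E11.5 and E17.5 side by side and a bar at the group median. The 3 embryonic genes sit above 379 CPM at E11.5 and under 1 CPM at E17.5, Hbb-bs moves the other way, and the other adult-type genes overlap between stages in wild type.

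Hbb-bs, an adult β chain, was the member that rose. It stood at 18.9, 12.1, 8.03 and 5.46 CPM in the wild type samples and 16.4, 24.00, 4.23 and 8.46 CPM in the humanized samples at E11.5, and at 622, 202, 336 and 171 CPM in the wild type samples and 218, 196, 382 and 231 CPM in the humanized samples at E17.5. The stages did not overlap in either genotype. The difference was 5.06 ± 0.56 in wild type (edgeR adjusted p = 2.76e-05; 4.48 without replicate 1 of E17.5) and 4.36 ± 0.44 in humanized samples (edgeR adjusted p = 1.95e-06).

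Hbb-bt, the other adult β chain, was not called between stages. Its levels were 37.6, 44.2, 23.1 and 21.7 CPM in the wild type samples and 47.01, 56.3, 19.7 and 38.4 CPM in the humanized samples at E11.5, and 91.3, 31.8, 44.02 and 23.5 CPM in the wild type samples and 33.9, 24.5, 55.3 and 31.3 CPM in the humanized samples at E17.5. The stages overlapped in both genotypes, and the differences of 0.75 ± 0.43 (edgeR adjusted p = 0.160) and −0.08 ± 0.29 (edgeR adjusted p = 0.814) did not pass the threshold of 0.05. Without replicate 1 of E17.5 the wild type difference was 0.13.

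Hba-a1, the first adult α gene, was already present at E11.5, at 97.8, 111, 44.3 and 70.04 CPM in the wild type samples and 120.4, 182, 82.5 and 133 CPM in the humanized samples. At E17.5 it stood at 121, 33.6, 51.9 and 26.2 CPM in the wild type samples and 41.3, 26.7, 54.1 and 37.9 CPM in the humanized samples. The wild type stages overlapped, whereas all 4 humanized samples of E17.5 lay below all 4 of E11.5. The stage difference was −0.31 ± 0.48 in wild type (edgeR adjusted p = 0.602) and −1.61 ± 0.23 in humanized samples (edgeR adjusted p = 4.39e-05). Without wild type replicate 1 of E17.5 the wild type difference was −1.05 (edgeR adjusted p = 0.0060), which passed. The difference between the 2 genotypes' stage effects was −1.30 ± 0.58 and did not pass (edgeR adjusted p = 0.462).

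Hba-a2, the second adult α gene, was counted at lower levels, with 17.7, 19.7, 8.71 and 12.3 CPM in the wild type samples and 21.6, 34.8, 12.5 and 24.1 CPM in the humanized samples at E11.5. At E17.5 the values were 31.02, 7.70, 13.4 and 7.42 CPM in the wild type samples and 12.8, 9.97, 13.5 and 10.97 CPM in the humanized samples. It fell in humanized samples (−0.89 ± 0.25, edgeR adjusted p = 0.0056) and differed by 0.19 ± 0.47 in wild type (edgeR adjusted p = 0.752), where leaving out E17.5 replicate 1 turned the sign (−0.55, edgeR adjusted p = 0.094). Fitted on all 16 samples together, the humanized difference was −0.88 and missed the threshold (edgeR adjusted p = 0.066). No member passed the test of the interaction, and 0.0% of 20234 genes did.

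In all, 4 of 7 members passed the stage test in wild type, 1 higher and 3 lower at E17.5, and 6 of 7 in humanized samples, 1 higher and 5 lower. Without replicate 1 of E17.5, 5 of 7 passed in wild type, 1 higher and 4 lower. In that fit 13994 of 19351 genes were called, 6968 higher and 7026 lower. In the fits on all libraries, 55.7% of 18583 genes were called between stages in wild type and 77.7% of 18781 in humanized samples. A call between stages is thus common in this tissue. By direction, 29.0% of genes were higher and 26.7% lower at E17.5 in wild type, and 38.2% and 39.5% in humanized samples. The sample ranges of the stages did not overlap for 1 member that was higher and 3 that were lower in wild type, where 22.4% and 30.0% of all genes did so, and for 1 and 4 in humanized samples, where 32.7% and 39.1% did. Stage is confounded in this design with collection, litter and the number of embryos pooled.

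Between genotypes at E11.5, the 7 members had log2 fold changes above 0, humanized over wild type, as 50.4% of all genes did, and none passed the test. The differences were 0.79 ± 0.24 for Hbb-bh1, 0.75 ± 0.23 for Hba-x, 0.68 ± 0.29 for Hba-a1, 0.67 ± 0.31 for Hba-a2 and 0.62 ± 0.24 for Hbb-y, each with an edgeR adjusted p of 0.577. They were 0.35 ± 0.32 for Hbb-bt and 0.25 ± 0.50 for Hbb-bs, with adjusted p of 0.623 and 0.814. In this comparison 0.0% of 17816 genes were called by edgeR, 1058 had an unadjusted p under 0.05, and DESeq2 called 2. The genotype ranges overlapped for 7 of 7 members, and of all genes 1.26% lay without overlap higher and 1.17% lower in humanized samples. Leaving out 1 replicate each, the difference ranged from 0.66 to 1.09 for Hbb-bh1 and from −0.21 to 0.63 for Hbb-bs. Overlapping ranges and the lack of a call do not show that the genotypes were equal. At E17.5 the 3 embryonic genes were too low to test. The adult-type differences, −0.44 ± 0.41 for Hbb-bs, −0.46 ± 0.42 for Hbb-bt, −0.61 ± 0.45 for Hba-a1 and −0.40 ± 0.44 for Hba-a2, had an edgeR adjusted p of 0.808, where 0.0% of 18763 genes were called (207 at an unadjusted p under 0.05, and 1 by DESeq2). The log2 fold change was above 0 for 47.5% of all genes and 0 of these 4 members, and 0.426% and 0.735% of genes lay without overlap higher or lower. Without wild type replicate 1 they turned to 0.14, 0.15, 0.12 and 0.34.

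Levels per kilobase of transcript were used to set different genes side by side. They divide by the whole transcript, although a smaller part of it was unique in the adult-type genes, and least in Hba-a2 and Hba-a1, so the order of those genes is uncertain. The order in wild type at E11.5 was Hbb-y (1998 ± 632 CPM per kb, SD, n = 4), Hbb-bh1 (904 ± 354), Hba-x (862 ± 274), Hba-a1 (109 ± 40.1), Hbb-bt (44.99 ± 15.7), Hba-a2 (22.6 ± 7.73) and Hbb-bs (16.8 ± 8.82). The humanized order was the same, from 3082 ± 866 for Hbb-y to 19.99 ± 13.2 for Hbb-bs. Each pair of neighbours in the wild type order overlapped in range except Hba-x and Hba-a1, the last embryonic and the first adult-type gene, and Hbb-bt and Hba-a2. At E17.5 the wild type order was Hbb-bs (501 ± 309.8), Hba-a1 (78.8 ± 58.5), Hbb-bt (67.7 ± 43.04) and Hba-a2 (23.00 ± 17.2), followed by the embryonic genes at 0.22 CPM per kb or less. Without replicate 1 the adult-type means were 356 ± 132 for Hbb-bs, 50.5 ± 17.9 for Hba-a1, 47.1 ± 14.6 for Hbb-bt and 14.7 ± 5.20 for Hba-a2 (SD, n = 3), in the same order. Hbb-bs thus moved from the last place to the first, and Hba-a1, Hbb-bt and Hba-a2 kept their order with overlapping neighbours.

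The make-up of the globin counts changed with stage. Embryonic genes held 93.5, 95.1, 95.1 and 95.5% of all globin counts in the wild type samples of E11.5 and 94.6, 94.6, 96.3 and 95.6% in the humanized samples. At E17.5 they held 0.0802, 0.0190, 0.0669 and 0% and 0.0503, 0.0660, 0.178 and 0.0392%. The 0 was 0 of 5536 counts in wild type replicate 4, which allows a share of up to 0.0542%. The genotypes overlapped at both stages and the stages did not.

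Within E11.5 the β-type genes were further towards the embryonic end than the α-type genes. Embryonic chains were 96.98 to 98.9% of β-type counts and 85.5 to 90.1% of α-type counts over the 8 samples. Among the adult β genes, Hbb-bt held 66.6, 78.5, 74.2 and 79.9% of counts in wild type and 74.1, 70.1, 82.3 and 81.96% in humanized samples at E11.5. At E17.5 it held 11.1 to 13.6%, so that the larger of the adult β genes differed between stages in every sample. Among the adult α genes, Hba-a1 held 83.6 to 86.9% at E11.5 and 72.8 to 81.3% at E17.5. Both splits rest on reads that tell near-identical copies apart. Among the embryonic β genes, which are distinct, Hbb-bh1 held 23.1 to 40.1% of counts at E11.5. The α-type genes together held 29.4 to 29.98% of globin counts in wild type and 30.2 to 31.3% in humanized samples at E11.5, and 13.4 to 17.7% at E17.5.

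**Figure D2:**
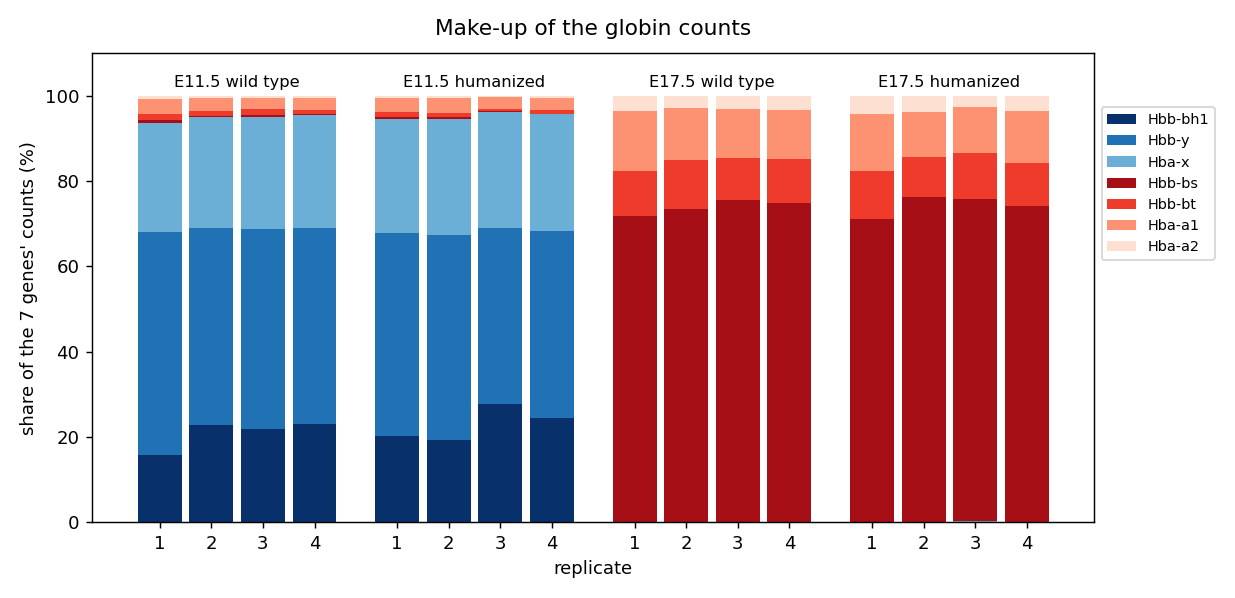
Stacked bars of the share of each of the 7 globin genes in a sample's globin counts, in percent, for the 16 RNA samples grouped by stage and genotype. Embryonic genes fill over 93% of every E11.5 bar, and Hbb-bs fills most of every E17.5 bar.

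In sum the 7 genes took 2664, 3776, 1729 and 2422 CPM in wild type and 3792, 5504, 3179 and 4665 CPM in humanized samples at E11.5, that is 0.173 to 0.550% of counts on genes. At E17.5 they took 866, 275, 446 and 228 CPM and 306, 257, 506 and 311 CPM, or 0.0228 to 0.0866%. Every E17.5 sample lay below every E11.5 sample. The adult-type genes alone summed to 84.2 to 297 CPM at E11.5 and 228 to 865 CPM at E17.5, with overlap between the stages. Wild type replicate 1 of E17.5 held 866 CPM against 228 to 506 CPM in the other 7 samples of its stage.

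Genes of the red cell other than globins fell as well. The erythroid membrane and heme list, 21 of whose 22 genes were found in the files, summed to 362 to 595 CPM in wild type and 491 to 811 CPM in humanized samples at E11.5, and to 212 to 440 CPM and 212 to 267 CPM at E17.5. Of the 17 genes tested in wild type, 12 fell and 3 rose between E11.5 and E17.5, against 26.7% and 29.0% of all genes. The median log2 difference of the list was −3.56. In humanized samples 14 fell and 0 rose, against 39.5% and 38.2% of all genes, with a median of −3.48. The risers in wild type were Sptb (1.15), Ank1 (0.64) and Tmcc2 (1.01). The first 2 encode spectrin and ankyrin of the membrane skeleton, which are also expressed in neurons. Without E17.5 replicate 1, an alternative chosen after seeing the data, the wild type counts were 14 lower and 3 higher, with a median of −3.66. In that fit 7026 of 19351 genes were lower and 6968 higher.

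Slc4a1, the band 3 anion exchanger of the red cell membrane, went from 100.3 ± 32.1 to 3.18 ± 3.77 CPM (SD, n = 4) in wild type, a difference of −4.80 (edgeR adjusted p = 0.000383). Hemgn, a nuclear protein of erythroid precursors, went from 21.7 ± 4.39 to 0.0821 ± 0.0689 CPM (−7.82, edgeR adjusted p = 3.67e-07). Alas2, the first enzyme of erythroid heme synthesis, moved far less, from 30.7 ± 11.1 to 17.6 ± 13.8 CPM (−0.63, edgeR adjusted p = 0.290 in wild type, and −1.43 without E17.5 replicate 1, edgeR adjusted p = 0.000465), and fell by 1.73 on the log2 scale in humanized samples (edgeR adjusted p = 1.83e-06). The erythroid transcription factors fell in 7 of 8 cases in wild type, all but Lmo2, and in 8 of 8 in humanized samples. Of all genes, 26.7% and 39.5% fell. Gata1, the master regulator of the lineage, and Klf1, which drives adult β-globin, fell by 5.76 and 4.20 on the log2 scale in wild type.

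At E11.5 the same lists leaned towards humanized samples without a call. The log2 difference was above 0 for 17 of 17 tested membrane and heme genes, with a median of 0.52 against 0.00 over all genes, and for 7 of 8 transcription factors, with a median of 0.53. Examples were 0.67 for Slc4a1, 0.92 for Klf1 and 0.79 for Gata1, and no gene of these lists had an edgeR adjusted p under 0.577. The globin sums themselves overlapped, at a median of 2543 CPM in wild type and 4229 CPM in humanized samples. At E17.5 the difference was above 0 for 3 of 9 and 0 of 4 genes tested, with medians of −0.18 and −0.27. Without wild type replicate 1 it was above 0 for 8 of 9 and 2 of 4, with medians of 0.04 and 0.04, so that the sign at E17.5 followed that library. Genes of a lineage move together within a sample and are not independent replicates.

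Of 7 regulators of globin switching, the passage from embryonic to adult chains, 1 rose and 3 fell between stages in each genotype, a share near that of all genes in wild type (55.7%) and below it in humanized samples (77.7%). The riser was Bcl11a, known as a silencer of embryonic globin genes in red cells (0.53 in wild type and 0.82 in humanized samples). Lin28a, an RNA-binding protein of early embryos, fell by 5.48 and Myb, a regulator of blood progenitors, by 1.44 on the log2 scale in wild type. These genes also act in brain cells, and their level in the tissue does not single out blood. Among the other globins tested in wild type, 3 of 3 rose, against 29.0% of all genes. They were Ngb, the neuronal globin (4.05), Adgb (3.48) and Cygb, cytoglobin (3.35). Hbq1b, the θ-type gene of the α cluster, was tested in humanized samples and fell by 2.21.

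Other cells that blood or vessels bring with them did not follow one course. Their counts are to be read against the 55.7% of all genes called between stages in wild type and 77.7% in humanized samples. Platelet genes fell in 6 of 7 cases in wild type and 6 of 6 in humanized samples, led by Gp6 (−4.67) and Ppbp (−4.40). Macrophage and microglia genes rose in 1 case (P2ry12, 1.47) and fell in 1 (Tmem119, −2.23) in wild type. The wild type sums of the list were 71.0–85.5 CPM at E11.5 and 70.0–99.3 CPM at E17.5, with the highest in replicate 1 of E17.5. The humanized sums were 71.6–80.6 CPM at E11.5 and 58.8–71.8 CPM at E17.5, with a narrow overlap. Endothelial genes rose in 2 cases, Cldn5 (1.36) and Flt1 (0.73), and fell in 1. Without E17.5 replicate 1 the macrophage counts were 2 higher and 3 lower, and the endothelial counts 2 higher and 4 lower. That fit called more genes in all, 13994 of 19351. Neutrophil genes summed to 1.0 to 7.3 CPM over all samples, and none was high enough to test in wild type. Of tissues that border the diencephalon, choroid plexus genes rose in 3 of 5 cases in wild type, led by Ttr (9.18) and Kcnj13 (2.77). Their sums went from 13.3–36.1 to 103–518 CPM over both genotypes. Meningeal genes fell in 5 and rose in 1 in wild type, led by Lum (−2.89) and Col1a1 (−1.99). Their sums went from 1445–1975 to 338–639.5 CPM over both genotypes. Of the 9 diencephalon regulators, 2 rose and 3 fell, led by Irx3 (−3.21) and Otx2 (−3.09). The part of these lists in the globin differences was not tested.

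The library with the highest globin level of E17.5 was also highest in several of these sums. Wild type replicate 1 held 440 CPM of erythroid membrane and heme genes against 212 to 246 CPM in the other wild type samples, 262 against 124 to 154 CPM of erythroid transcription factors, 453 against 297 to 336 CPM of endothelial genes and 99.3 against 70.0 to 75.8 CPM of macrophage genes. It also held the most meningeal RNA, 639.5 against 416 to 467 CPM, so that it differed in more than blood and vessels. The erythroid sums of E17.5 rest on a part of each list. Of the membrane and heme genes 9 of 21, and of the transcription factors 4 of 8, were high enough to test between genotypes there. Which cells of the tissue held these sums was not tested. Wild type replicate 3, with 446 CPM of globin, had the lowest wild type membrane and heme sum of E17.5, 212 CPM.

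**Figure D3:**
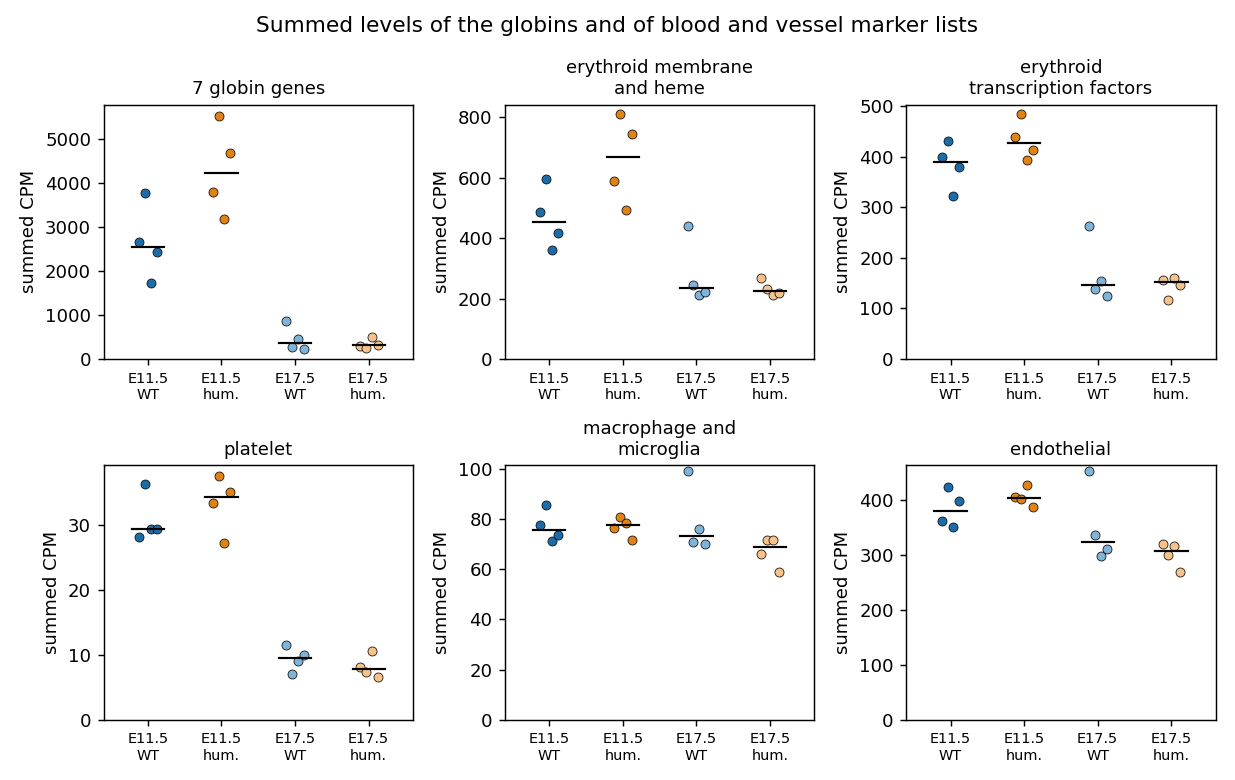
Summed CPM of the 7 globins and of marker gene lists in each RNA sample, on linear axes from 0, with stage and genotype side by side and a bar at the group median. Globin, erythroid transcription factor and platelet sums are lower at E17.5 without overlap, the erythroid membrane and heme sum overlaps through wild type replicate 1, macrophage sums overlap between stages, endothelial sums overlap in wild type only, and wild type replicate 1 is the highest of its group in several panels.

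The genes whose deviations from the 4 group means were most like those of the summed embryonic counts were Nhlh1 (r = 0.92), Cd63-ps (0.90), Gm14046 (0.88), Aldh1a2 (0.88) and Mfap4 (0.87), over 16 samples and 20217 genes on the log2(CPM + 1) scale. For the summed adult-type counts they were Nkain4 (0.96), Nhlh1 (0.95), Slc38a5 (0.95), Serinc2 (0.94) and Arfgap3 (0.94). With so many genes and so few samples, high values are found for some gene in any case, and they are given as a description. The median r of the erythroid membrane and heme list was 0.56 with the embryonic sum and 0.53 with the adult-type sum. For erythroid transcription factors it was 0.65 and 0.64, for endothelial genes 0.52 and 0.52, and for platelet genes 0.48 and 0.45. It was 0.34 and 0.29 for macrophage genes, 0.41 and 0.28 for meningeal genes and 0.17 and 0.09 for choroid plexus genes. No median over all genes was taken, so these values do not show that blood or vessel lists stand apart. All points share library and depth.

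H3K27ac, a mark of active promoters and enhancers, and H3K4me3, a mark of active promoters, were found at embryonic globin promoters at E11.5 only. In wild type, an H3K27ac peak lay within 1 kb of the 5′ end of Hbb-y (fold enrichment 3.5–3.9) and Hba-x (5.8–6.1) in 2 of 2 lists, and of Hbb-bh1 in 1 of 2 (4.0). In humanized lists all 3 had a peak in 2 of 2, at 4.3–4.6, 5.6–5.8 and 3.8–4.1. For comparison, 47.3% of 21770 protein-coding genes had a promoter peak in every wild type list. H3K4me3 marked Hbb-bh1 in 2 of 2 wild type lists (3.8–4.6) and 2 of 2 humanized lists (3.5–7.2), Hba-x in 1 of 2 and 2 of 2, and Hbb-y in 0 of 2 and 1 of 2, where 63.5% of genes were marked. At E17.5 neither mark was called at any of the 7 promoters in any list, against 57.0% and 63.6% of genes. The promoters of Hbb-bs, Hbb-bt and Hba-a2 had no peak of any mark at either stage, although Hbb-bs RNA rose to 171 CPM or more. Reads that map to both copies of the adult α genes were removed before peaks were called, which can hide a peak there. Every two-sided Fisher's exact test of presence between genotypes at a promoter gave p = 1, and 2 lists against 2 cannot give less than 0.333.

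H3K27me3, the mark of Polycomb repression, was called at the Hba-x promoter in 1 of 2 wild type and 2 of 2 humanized lists at E11.5, and in 3 of 3 and 3 of 3 lists at E17.5 (2.5–3.2 and 3.0–3.2). The share of all genes with such a peak in every wild type list was 19.4% and 19.1%. It was called near Hba-a1 in 1 of 3 wild type lists of E17.5. In the β cluster, from 50 kb before to 50 kb after the listed genes, there was no H3K27me3 peak in 10 of 10 lists.

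The region upstream of Hbb-y held most H3K27ac peaks of the β cluster. Over that window, 103411727–103552423 on chromosome 7, there were 16 and 17 H3K27ac peaks in the wild type lists of E11.5 and 13 and 12 in the humanized lists, covering 10.2, 7.736, 4.997 and 4.619 kb. There were 0 in 6 of 6 lists of E17.5, although those lists held more peaks in all (47132 to 77419) than those of E11.5 (32418 to 37311). Merged over E11.5 lists, the peaks formed 28 sites, and 5 were called in 4 of 4 lists. All 5 lay upstream of Hbb-y, where the locus control region is known to lie. The strongest was 103507735–103508405, with a fold enrichment of 7.1–8.4 in wild type and 4.6–6.3 in humanized lists. The others included 103508763–103510033 (6.2–7.4 and 4.4–5.1), 103518620–103519982 (5.6–5.7 and 3.7–4.4) and 103510554–103511717 (5.1–5.4 and 3.8–5.4). From 1 to 20 kb upstream of Hbb-y there were 11 and 11 peaks in wild type and 9 and 8 in humanized lists, and they covered 38.9% and 32.1% of bases in wild type and 20.4% and 18.4% in humanized lists at E11.5. The 2 wild type lists covered more than the 2 humanized lists, in the opposite order to the RNA medians at E11.5, and 2 against 2 cannot pass a test.

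**Figure D4:**
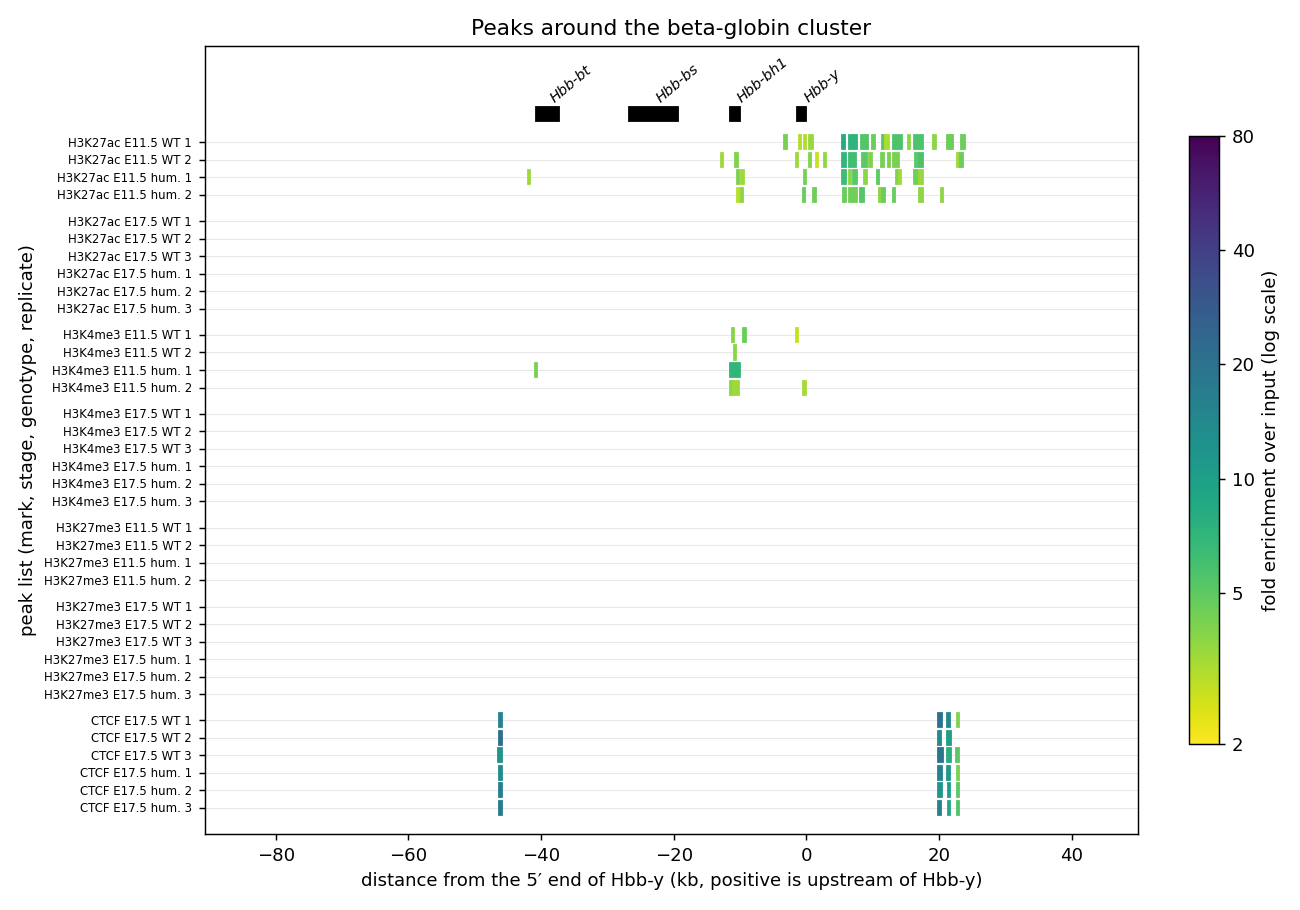
Peaks of each mark and of CTCF over the β-globin window in every list, 1 row per list, drawn by distance in kb from the 5′ end of Hbb-y and shaded by fold enrichment, with the 4 β-type members above. H3K27ac fills the region upstream of Hbb-y at E11.5 and is missing at E17.5, and CTCF peaks stand at both flanks.

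CTCF, the factor that marks many chromatin domain borders, flanked the β genes at E17.5. Its sites called in 6 of 6 lists were 103455971–103456550 (12–21 in wild type, 13.4–17.7 in humanized lists), beyond Hbb-bt, and 103522179–103522929 (13.6–19.8 and 11.3–16) and 103523616–103524153 (7.9–14.7 and 8.9–10.9), upstream of Hbb-y. None lay within 1 kb of a member's 5′ end, where 33.6% of all genes had a peak in every wild type list.

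The α window, 32176400–32297320 on chromosome 11, includes the widely expressed gene Nprl3 and was marked at both stages. Its edges also take in peaks over Mpg and Sh3pxd2b. At E17.5 the 3 H3K4me3 sites called in 6 of 6 lists overlapped Mpg, Nprl3 and Sh3pxd2b. Peak counts of this window thus include peaks of other genes. The window held 30 and 24 H3K27ac peaks in the wild type and 23 and 22 in the humanized lists of E11.5. At E17.5 it held 6, 8 and 9 in wild type and 7, 8 and 7 in humanized lists. Of those of E11.5, 8, 6, 7 and 6 touched the span of the listed genes, in the order wild type 1, wild type 2, humanized 1 and humanized 2, and none did at E17.5. Of 31 merged sites of E11.5, 15 were called in 4 of 4 lists. Among them were 32192430–32195672 (6.1–7.6 in wild type and 5.2–5.9 in humanized lists), 32201174–32202278 (5.3–8.0 and 3.2–5.8) and 32206460–32207069 (7.1–7.3 and 3.7–7.3), all within Nprl3, and 32226652–32227909 on Hba-x (5.8–6.1 and 5.6–5.8). The Nprl3 promoter stayed acetylated at E17.5, at 32216755–32218243. Of the 3 listed α-type genes, Hba-x alone had an H3K27ac promoter peak at E11.5, and it had none at E17.5. At E17.5 a site at 32252723–32253685, near Hbq1a and outside the span of the listed genes, was called in 6 of 6 lists.

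**Figure D5:**
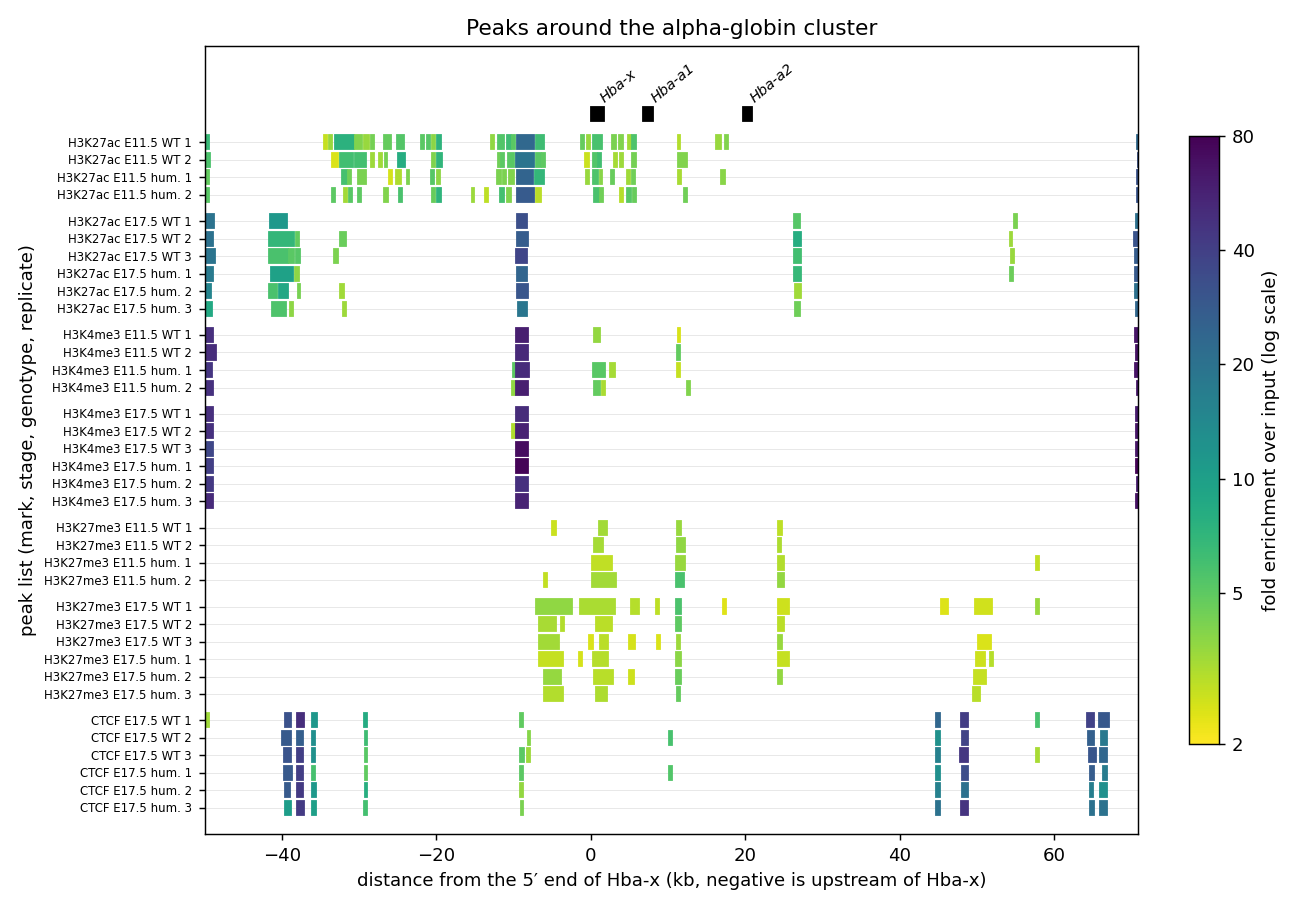
Peaks of each mark and of CTCF over the α-globin window in every list, 1 row per list, drawn by distance in kb from the 5′ end of Hba-x and shaded by fold enrichment, with the 3 α-type members above. H3K27ac lies on and around Hba-x at E11.5 and not at E17.5, H3K27me3 stands on Hba-x, and the peak at the Nprl3 promoter is present at both stages.

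H3K27me3 around Hba-x was called over 32226536–32229707 in 4 of 4 lists of E11.5 and over 32224920–32229601 in 6 of 6 of E17.5. The same mark was also called at the θ-type genes, over 32237477–32238592 (Hbq1b) and 32250613–32251465 (Hbq1a). Both H3K27ac and H3K27me3 were thus called on Hba-x at E11.5, in separate ChIP samples of mixed cells.

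CTCF in the α window was called at 13 sites, 8 of them in 6 of 6 lists. The highest wild type enrichments were at 32188332–32189245 and 32274258–32275262, on either side of the globin genes. Of the 11 CTCF sites of both windows called in 3 of 3 wild type lists, 3 held the letters AGGNGGC, the core of the CTCF motif, within 50 bases of the summit, on either strand. The share was 22.7% to 25.0% over all peaks of the 3 wild type lists. The 3 are shown with the core in capitals, all on the minus strand, since they let the sites be told apart by sequence.
β cluster (chr7:103456264-103456304): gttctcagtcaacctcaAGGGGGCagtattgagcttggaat
α cluster, nearer (chr11:32271378-32271418): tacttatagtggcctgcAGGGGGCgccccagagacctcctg
α cluster, farther (chr11:32291277-32291317): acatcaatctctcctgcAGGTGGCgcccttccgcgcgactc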

How the data were processed

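RNA and chromatin of diencephalon from hs754 humanized and wild type embryos were profiled, and samples were grouped by the genotype and stage of their labels. The authors aligned polyA-selected, paired 150-base RNA-seq reads to mm39 with STAR 2.7.9a and deposited unnormalized counts per gene of the GENCODE M31 basic annotation. The unstranded column was used. Rows that name no gene (unmapped, multimapping, outside genes or ambiguous) held 48.1% to 58.4% of read pairs, 2.36% to 3.21% multimapping and 1.82% to 2.87% ambiguous, and stayed out of library sizes. For ChIP-seq the authors mapped reads with Bowtie2 2.4.2, removed duplicates and multimapping reads, and called peaks per replicate with MACS2 2.2.7.1, narrow for H3K27ac, H3K4me3 and CTCF and in 9 columns for H3K27me3. The deposited lists give fold enrichment as a ratio over local background, −log10 p and q, a whole-number score that was not used, and summit positions. Signal tracks were not used. The paper reports that its lot of H3K27ac antibody also bound H2BK5ac, acetylation of another histone, so peaks named H3K27ac can include that mark. Removal of multimapping reads can lower counts and peaks on near-identical copies such as Hba-a1 and Hba-a2.

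Counts were filtered with filterByExpr, scaled by TMM and tested with edgeR 4.0.16 (quasi-likelihood, Benjamini-Hochberg over all genes tested, called at an adjusted p under 0.05) in R 4.3.3. The comparisons were genotype at each stage, stage in each genotype, and their interaction. Scripts were tested on simulated data. DESeq2 1.42.0 and other settings were tried as alternatives. Each replicate was a litter pool, and counts over 16 libraries limit the precision. No test was run on sums or shares. Gene symbols came from the annotation for 98.8% of gene IDs. Ahsp and Fcrls of the marker lists were not matched. One marker list is not reported here. Promoter sequences came from RefSeq (GRCm38.p6) and were placed in mm39 by exact match. The deviations of same-numbered samples of the 2 genotypes at E17.5 correlated with r of 0.62, 0.70, 0.13 and 0.33. The highest r with a sample of another number was 0.16, 0.45, 0.35 and 0.45, so replicates 1 and 2 alone stood above it. A fit with the replicate number as a block was compared, and it called 0 genes as the fit without it did.

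The members and lists were chosen with earlier results of these data known. Named are the 7 members and the erythroid and other-globin lists. Also named are, of each other list, the 2 called genes with the largest stage difference in wild type. The 5 genes most like each globin sum are named as well, and so is Bcl11a, the switching regulator that rose.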

Additional observations from a re-analysis of the deposited data

How the results depend on the processing

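The stage differences of the 3 embryonic genes kept their direction and their call under the alternatives run. Those of Hbb-bs did so wherever Hbb-bs was tested on its own. A setting that summed the near-identical copies tested Hbb-bs together with Hbb-bt, and Hba-a1 together with Hba-a2. That setting thus gave no value for a single adult-type gene, and the difference of the summed pairs is not given here. Genotype calls over all genes at E11.5 were 2 with DESeq2 and 1 in a fit on all 16 samples, and at E17.5 1 with DESeq2, against 0. With the replicate number as a block, Hba-a2 between stages in wild type was −0.035, the genotype comparisons stayed at 0 called genes, and no other call on a member changed. At E11.5 the same-number correlations were 0.063, 0.23, 0.035 and 0.14, so the samples share only a number there. Leaving out 1 replicate each, genotype differences ranged from −0.21 to 0.63 for Hbb-bs at E11.5, and at E17.5 from −0.65 to 0.14 for Hbb-bs, −0.69 to 0.15 for Hbb-bt, −0.85 to 0.12 for Hba-a1 and −0.62 to 0.34 for Hba-a2. Stage differences ranged from −0.55 to 0.43 for Hba-a2 in wild type and −0.33 to 0.090 for Hbb-bt in humanized samples. Interactions ranged from −2.39 to 0.91 for Hbb-bh1, −0.57 to 1.30 for Hbb-y and −1.96 to 0.19 for Hba-x. Genes called between stages in wild type ranged from 9147 to 13994, the latter without E17.5 replicate 1, and members called from 4 to 5. With β-type genes alone the median embryonic share at E11.5 was 97.7% in wild type and 98.2% in humanized samples, and the humanized sum 2935 CPM. Per exonic length the median sums were 3799 and 6314 CPM per kb at E11.5 and 456 in humanized samples at E17.5.

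Among wild type peak lists, a −log10 q of at least 5 left H3K27ac promoter peaks in every list at 1 member, H3K4me3 at 0 and H3K27me3 at E17.5 at 0. At E11.5 it left medians of 8.5 and, rounded up, 18 H3K27ac peaks in the β and α windows, 0.5 H3K4me3 peaks in the β window and 0 H3K27me3 peaks in the α window, where 1 remained at E17.5. Windows of 100 kb gave α medians of 18 H3K27ac peaks at E17.5, 7 and 5 H3K4me3 peaks at E11.5 and E17.5, and 18 CTCF peaks. H3K27me3 promoter members were 1 at E11.5 with 2 kb and 0 at E17.5 with 50% of the peak inside. Leaving out 1 list each gave 2 to 3 H3K27ac, 1 to 2 H3K4me3 and 0 to 1 H3K27me3 members at E11.5, and 1 to 3 H3K4me3 peaks in the β window. The cause was not tested. The 2 lists per genotype at E11.5 limit what peaks can show, and absence of a call is not absence of the mark.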

Other observations

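Within E11.5, the share of Hbb-bh1 among embryonic β counts and the share of Hbb-bt among adult β counts differed among samples of one genotype. Humanized replicates 3 and 4 had the highest Hbb-bh1 shares, 40.1% and 35.8%, and the highest Hbb-bt shares, 82.3% and 82.0%. Wild type replicate 1 had the lowest of both, 23.1% and 66.6%. These shares were looked at after the values were seen, and they have no test.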
